A study of Mus musculus with 4 samples.

Results

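Glutamate receptor genes and the genes of their auxiliary subunits were examined in bulk RNA-seq of neurons derived from mouse embryonic stem (ES) cells. The 34 genes were taken from a list of receptor subunits and auxiliary subunits chosen by name and function; the rule uses no measured value. All 34 were among the 34968 gene symbols shared by the 4 libraries, and 28 of them had at least 1 TPM (abundance relative to transcript length and to the sum of the library) in at least 2 libraries and were tested among 12975 genes. The other 6 members, Grin2a, Grin2c, Grin3b, Grid1, Grm6 and Cacng7, did not pass that filter and have values but no test.

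Both ES lines descended from the same parental line, Dlx6-Cre; Ai9 on C57/BL6 (Dlx6a-Cre in the methods of the study), in which Cre driven from Dlx6 switches on tdTomato in differentiated forebrain GABAergic neurons. The N/D line additionally expressed Nkx2-1 from a Nestin promoter construct that also drives a tetracycline transactivator and, through it, Dlx2. The N/D/S line carried the same system with V5-tagged St18 added to Dlx2. Each line came from selected colonies, so that a difference between lines and a difference between clones cannot be told apart. Cells were grown as floating embryoid bodies with XAV-939, a Wnt pathway inhibitor, and SAG, a Smoothened agonist, and tdTomato+ neurons were sorted on day 12. There were 2 libraries per line, numbered replicate 1 and replicate 2. Whether these came from separate cultures is not given in the sources used here, so the p-values measure only the spread between these libraries, which may be technical.

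Fast excitatory transmission in the forebrain runs through ionotropic glutamate receptors, which are tetramers of AMPA, kainate or NMDA receptor subunits, while the metabotropic receptors signal through G proteins. Auxiliary subunits travel with the pore-forming subunits and set their trafficking, gating and kinetics: TARPs (the Cacng genes here) and cornichons associate with AMPA receptors and Neto proteins with kainate receptors. Young GABAergic neurons of the ventral forebrain already carry AMPA, kainate and NMDA receptors before they receive mature synapses.

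The libraries were checked on their markers. All 7 GABAergic markers in the files and all 6 markers of postmitotic neurons were at 1 TPM or above in every library, with summed levels of 516.9 to 1214 TPM and 2952 to 4622 TPM. The summed level of 6 glutamatergic neuron markers was between 1.27 and 19.1 TPM. Most of it was Slc17a6 (a vesicular glutamate transporter), at 18.4 TPM in N/D/S replicate 1 and 13.8 TPM in N/D replicate 1. Slc32a1, the vesicular GABA transporter, had 11.9 and 1.55 TPM in these libraries. In N/D replicate 1 the other GABAergic markers were higher, with 27.4 TPM for Gad1, 140.8 for Gad2 and 181.9 for Dlx1. Dlx5 had 136.3 TPM there, Lhx6 30.8 and Lhx8 46.9. Neurod6 had 3.53 TPM in N/D replicate 1, where Slc17a7, Neurod2 and Tbr1 were listed at 0. Emx1 was listed at 0 in every library. The library labelled N/D replicate 1 stood apart. Of 6139 genes that reached 10 TPM in all other libraries, 17.8% were under 1 TPM in it, against at most 0.115% for any other library. St18 itself had 44.5 and 15.9 TPM in N/D/S, against 28.5 and 26.6 in N/D, so every direction given below rests on the labels. Fold changes and tested shares are given with and without N/D replicate 1 for that reason. Read counts cannot be had from TPM, and library depth is therefore unknown.

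**Figure D1:**
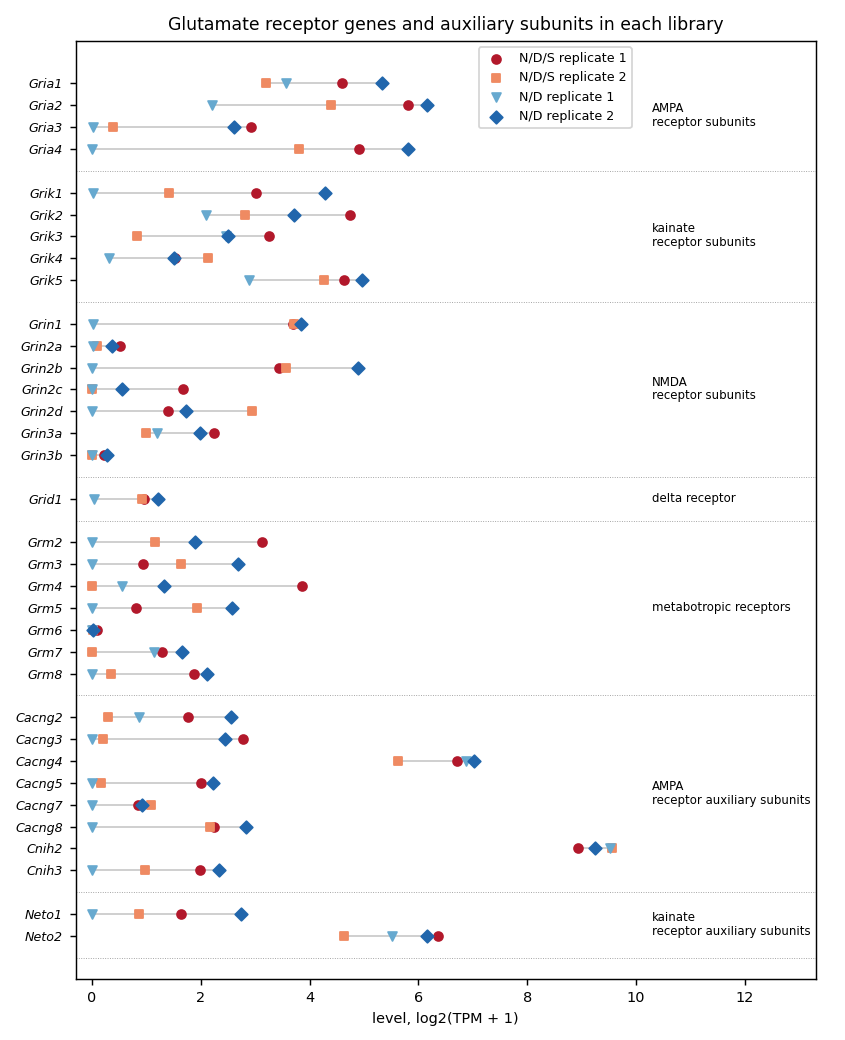
Level of each of the 34 genes in each library, as log2(TPM + 1) on the horizontal axis. Genes are grouped by role, red symbols are the N/D/S libraries and blue symbols the N/D libraries, and a grey line joins the lowest to the highest library. Within each library, the symbols of Cnih2, Cacng4 and Neto2 lie farther to the right than those of the other members, and N/D replicate 1 (light blue triangles) is the lowest library for most of the others.

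The most abundant member by far was Cnih2, which encodes a cornichon that promotes the export of AMPA receptors from the endoplasmic reticulum and slows their deactivation. Cnih2 had 487.4 and 750.4 TPM in N/D/S, against 731.9 and 608.3 in N/D, each in the order of the replicate numbers. The groups overlapped. Cnih2 alone made up 52.3% and 79.9% of the summed TPM of all 34 genes in N/D/S and 79.1% and 53.2% in N/D. It ranked between 212 and 300.0 among the 12975 tested genes in every library. The log2 fold change (N/D/S against N/D), on the log2(TPM + 1) scale used for every fold change here, was −0.14 (standard error 0.97). Without N/D replicate 1 the value was −0.01. Its residual standard deviation, 0.34, was below the median of 1.34 over the 28 tested members.

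In GRCm38, Cnih2 occupies 5092868 to 5098521 on chromosome 19, minus strand. Of its 1369 annotated exon bases, 14 overlap exons of Yif1a on the opposite strand, and Yif1a had 62.8 to 126.4 TPM. Whether the pseudoalignment used strand is not given in the sources used here, so reads over those bases cannot be assigned with certainty. The other cornichon on the list, Cnih3, which has a similar action on AMPA receptors, had 2.98 and 0.975 TPM in N/D/S. In N/D it was listed at 0 in replicate 1 and had 4.07 TPM in replicate 2. Per length, Cnih2 thus held between 99.3% and 100% of the summed cornichon level in every library.

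The stretches before the transcription starts of 4 genes of the AMPA receptor complex are shown because these genes differ widely in level: Cnih2 against Cnih3, and Gria2 with Gria4, the AMPA receptor subunit genes with the largest residual standard deviation between libraries on the log2 scale. St18 belongs to the Myt family of zinc finger factors, whose recognition core is AAGTT, and matches to AAGTT on either strand are in capitals. Each run is the 250 bases upstream of the start in RefSeq on GRCm38.p6, 5′ to 3′ on the strand of the gene, and none of its bases lies in an annotated exon. The positions are chr19:5098522-5098771, minus strand, for Cnih2, chr1:181352378-181352627, plus strand, for Cnih3, chr3:80802836-80803085, minus strand, for Gria2 and chr9:4796235-4796484, minus strand, for Gria4.
Cnih2: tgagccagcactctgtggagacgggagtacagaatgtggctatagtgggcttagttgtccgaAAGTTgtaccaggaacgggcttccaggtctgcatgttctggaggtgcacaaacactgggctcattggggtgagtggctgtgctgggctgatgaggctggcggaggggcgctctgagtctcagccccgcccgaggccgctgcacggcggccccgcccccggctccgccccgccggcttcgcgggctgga
Cnih3: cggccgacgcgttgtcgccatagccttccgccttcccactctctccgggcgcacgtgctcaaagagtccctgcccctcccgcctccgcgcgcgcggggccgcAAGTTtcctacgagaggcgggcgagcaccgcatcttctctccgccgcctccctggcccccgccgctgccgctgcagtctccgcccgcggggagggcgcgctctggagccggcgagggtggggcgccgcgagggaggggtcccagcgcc
Gria2: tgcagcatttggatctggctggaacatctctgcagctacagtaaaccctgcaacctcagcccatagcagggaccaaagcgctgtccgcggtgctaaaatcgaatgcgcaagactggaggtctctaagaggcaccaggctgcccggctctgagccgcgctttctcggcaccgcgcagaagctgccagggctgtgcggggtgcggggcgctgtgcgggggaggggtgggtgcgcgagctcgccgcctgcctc
Gria4: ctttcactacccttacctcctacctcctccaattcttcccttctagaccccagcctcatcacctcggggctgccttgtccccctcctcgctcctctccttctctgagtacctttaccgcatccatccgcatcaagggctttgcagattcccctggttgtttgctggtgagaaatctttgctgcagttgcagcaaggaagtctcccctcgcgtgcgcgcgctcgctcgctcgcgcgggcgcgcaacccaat
The windows of Cnih2 and Cnih3 hold 1 match each, and those of Gria2 and Gria4 hold 0. The promoter table had 28 windows for 23 of the 34 members, and none for Gria1, Gria3, Grik1, Grin2a, Grin2b, Grin3a, Grid1, Grm4, Grm5, Cacng4 and Neto1. AAGTT was present on either strand in 8 of the 28 windows (28.6%), against 35.3% of all 32851 windows of the same length. Median GC content was 62% in the members' windows and 52.4% in all windows, with a median of 10.5 and 6 CpG dinucleotides. A match is a description of letters and not a binding site, and no binding was measured here.

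Cacng4, the TARP gene most abundant in these neurons, encodes a transmembrane AMPA receptor regulatory protein that directs AMPA receptors to the surface. It had 103.6 and 48.6 TPM in N/D/S, against 115.6 and 128.9 in N/D. Both N/D/S libraries were below both N/D libraries, though the gap between the nearest ones was small beside the difference within N/D/S. The log2 fold change was −0.77 (standard error 1.00) and −0.85 without N/D replicate 1, and it ranged from −1.31 without N/D/S replicate 1 to −0.23 without N/D/S replicate 2. Cacng4 was the only tested member lower in both N/D/S libraries, 1 of 28, when 8.23% of all tested genes were.

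The other TARP genes were far lower per length, so that Cacng4 held 86.5% to 99.3% of the summed TPM of the 6 TARP genes. Cacng2, which encodes stargazin, had 2.42 and 0.218 TPM in N/D/S, against 0.809 and 4.89 in N/D. Cacng3 had 5.81 and 0.152 TPM in N/D/S, was listed at 0 in N/D replicate 1 and had 4.46 TPM in N/D replicate 2. The closely related genes Cacng5 and Cacng7 encode TARPs with weaker and more subunit-selective effects. Cacng5 had 2.99 and 0.119 TPM in N/D/S, was listed at 0 in N/D replicate 1 and reached 3.69 TPM in N/D replicate 2. For Cacng2, Cacng3 and Cacng5, the high libraries were replicate 1 of N/D/S and replicate 2 of N/D, and the groups overlapped. Cacng8, a TARP typical of forebrain synapses, had 3.73 and 3.47 TPM in N/D/S, but in N/D its value was 6.13 TPM in replicate 2 and 0 as listed in replicate 1. Cacng7 stayed between 0.787 and 1.12 TPM in the libraries other than N/D replicate 1, where it was listed at 0. Exons of A730060N03Rik overlap 323 exon bases of Cacng2 on the opposite strand.

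Neto2, an auxiliary subunit that slows the desensitization of kainate receptors, was the third member by level in every library. It had 80.7 and 23.7 TPM in N/D/S, against 44.9 and 70.8 in N/D. The N/D libraries lay between those of N/D/S, and the log2 fold change was −0.35 (standard error 1.07), or −0.68 without N/D replicate 1. Neto1, which also binds NMDA receptors, had 2.12 and 0.814 TPM in N/D/S, was listed at 0 in N/D replicate 1 and had 5.66 TPM in N/D replicate 2. Neto2 held 92.6% to 100% of the summed level of both Neto genes.

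Among the pore-forming subunits, an AMPA receptor gene had the highest level per length in every library, Gria1 in N/D replicate 1 and Gria2 in the others. Gria2, whose edited subunit makes AMPA receptors impermeable to calcium, occupies 80681450 to 80802835 on chromosome 3, minus strand. It had 54.8 and 20.1 TPM in N/D/S, against 3.60 and 70.1 in N/D. Both extremes fell within the N/D line. Its log2 fold change was 0.92 (standard error 1.47) with all libraries and −1.05 without N/D replicate 1, so the sign turned on that library.

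Gria4, a subunit of fast AMPA receptors that is abundant in young neurons and interneurons, had 29.2 and 12.9 TPM in N/D/S, but in N/D its value was 55.2 TPM in replicate 2 and 0 as listed in replicate 1. Of the members listed at 0 in that library, it had the highest level elsewhere. Gria1, which carries AMPA receptors to synapses during plasticity, had 23.3 and 8.21 TPM in N/D/S, against 10.8 and 39.4 in N/D, and its log2 fold change was −0.55 (standard error 1.13), or −1.43 without N/D replicate 1. Gria1 was the only AMPA receptor subunit gene for which N/D replicate 1 was not the lowest library. Gria3 was the least abundant of the family outside N/D replicate 1, with 6.63 and 0.306 TPM in N/D/S, against 0.0063 and 5.11 in N/D. For all 4 AMPA receptor genes N/D/S was higher than N/D in replicate 1 and lower in replicate 2.

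The composition of a receptor family within a library does not depend on scaling between libraries. Gria2 made up 48.1% and 48.3% of the summed TPM of Gria1 to Gria4 in N/D/S and 25.0% and 41.3% in N/D. Both N/D/S libraries were above both N/D libraries. The difference of the means was 15.1 percentage points with all libraries (two-sided exact permutation test, p = 0.333) and 6.94 points without N/D replicate 1. With 2 libraries per line this test cannot go below 0.333, and after adjustment over the 3 shares tested the exact p was 1. Leaving out N/D replicate 1, Gria1 held 19.8% to 23.2%, Gria2 41.3% to 48.3%, Gria3 0.738% to 5.82% and Gria4 25.6% to 32.5%, so the order Gria2, Gria4, Gria1, Gria3 was the same in these 3 libraries while their summed level ran from 41.5 to 169.8 TPM. In N/D replicate 1 Gria1 held 74.9% of a sum of 14.4 TPM.

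**Figure D2:**
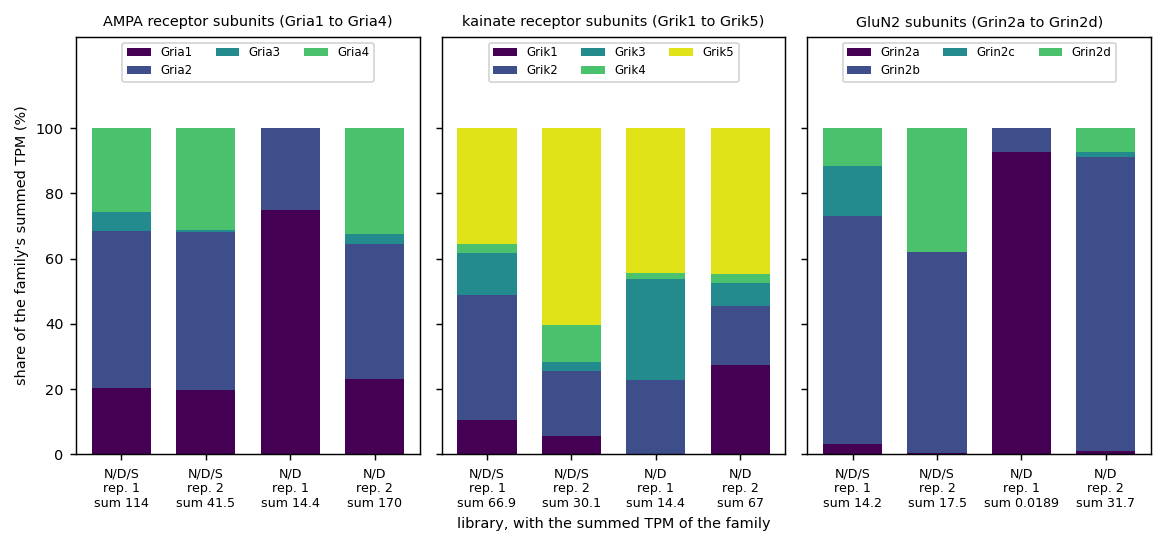
Share of each subunit gene in the summed TPM of its family, in percent on the vertical axis, for each library. The summed TPM of the family stands under each bar. The AMPA receptor bars are alike in the 3 libraries other than N/D replicate 1, whereas the sum behind the GluN2 bar of N/D replicate 1 is 0.0189 TPM.

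Of the kainate receptor genes, Grik5 had the highest level per length in every library but N/D/S replicate 1, where Grik2 was above it. Grik5, a high-affinity subunit that needs a Grik1 to Grik3 partner to form a channel, had 23.8 and 18.2 TPM in N/D/S, against 6.42 and 30.0 in N/D, with a log2 fold change of 0.52 (standard error 1.11) that turned to −0.51 without N/D replicate 1. Grik2, a subunit that forms channels by itself, had 25.7 and 6.06 TPM in N/D/S, against 3.28 and 12.1 in N/D. The groups overlapped for both genes. Grik2 held 38.3% and 20.1% of the kainate receptor sum in N/D/S and 22.7% and 18.1% in N/D, a difference of 8.83 percentage points (two-sided exact permutation test, p = 0.667). It was 11.2 points without N/D replicate 1 and turned to −0.27 without N/D/S replicate 1.

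Grik1, the kainate receptor subunit found in many forebrain interneurons, had 7.10 and 1.68 TPM in N/D/S, against 0.0092 and 18.4 in N/D. Its log2 fold change was 0.07 (standard error 1.55) with all libraries. Without N/D replicate 1 it turned to −2.06, the lowest of the tested members in that fit, with an unadjusted p of 0.073 that limma and Benjamini-Hochberg adjustment brought to an adjusted p of 1. Grik3 had 8.53 and 0.776 TPM in N/D/S against 4.48 and 4.67 TPM in N/D, so that its N/D libraries were alike and lay between those of N/D/S. Grik4, the second high-affinity subunit, had 1.87 and 3.40 TPM in N/D/S, against 0.244 and 1.84 in N/D. It was the only tested member higher in both N/D/S libraries than in both N/D libraries, 1 of 28, when 8.69% of all tested genes were. The nearest libraries of the groups, at 1.87 and 1.84 TPM, were almost level. Its log2 fold change was 0.92 (standard error 1.02) and 0.32 without N/D replicate 1.

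NMDA receptors need GluN1, the product of Grin1, together with GluN2 or GluN3 subunits. Grin1 had 12.0 and 12.2 TPM in N/D/S, against 0.013 and 13.4 in N/D. The 3 libraries other than N/D replicate 1 lay within a narrow range, and the log2 fold change of 1.78 (standard error 1.40), the largest of the tested members, became −0.14 without that library. Exons of Grin1os overlap 1307 of the 9700 exon bases of Grin1 on the opposite strand.

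Grin2b, which encodes the GluN2 subunit that dominates before birth, was the leading GluN2 gene in the libraries other than N/D replicate 1. It had 9.90 and 10.8 TPM in N/D/S, against 0.0014 and 28.6 in N/D, so N/D replicate 2 was above both N/D/S libraries and N/D replicate 1 far below them. The log2 fold change was 1.06 (standard error 1.62), against −1.39 without N/D replicate 1. Grin2d, the GluN2 subunit of slow receptors in interneurons and subcortical neurons, had 1.64 and 6.68 TPM in N/D/S, was listed at 0 in N/D replicate 1 and had 2.32 TPM in N/D replicate 2. N/D/S replicate 2 was the high library, and the log2 fold change was 1.31 (standard error 1.14), or 0.44 without N/D replicate 1. Grin2d and Grik4 were the only tested members with a higher level in N/D/S for each replicate number. Exons of Gm45441 overlap 643 exon bases of Grin2d on the opposite strand.

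The subunits of mature forebrain and cerebellar receptors were scarce. Grin2a, which largely joins receptors after birth, had 0.429 and 0.067 TPM in N/D/S, against 0.017 and 0.282 in N/D. Grin2c, known from the cerebellum, had 2.18 TPM in N/D/S replicate 1 and 0.457 TPM in N/D replicate 2 and was listed at 0 in the other libraries. Grin2b thus held 70.0% and 61.5% of the summed GluN2 level in N/D/S, and 7.22% and 90.3% in N/D. The share in N/D replicate 1 is of a sum of 0.0189 TPM and carries little information. The difference of the means was 17.0 percentage points (two-sided exact permutation test, p = 1) and turned to −24.6 without N/D replicate 1. Grin3a, a GluN3 subunit that lowers calcium permeability, had 3.75 and 0.998 TPM in N/D/S, against 1.28 and 2.95 in N/D. It supplied 97.6% of the NMDA receptor sum of 1.31 TPM in N/D replicate 1. Grin3b was at or below 0.215 TPM in every library, and 1059 of its 3296 exon bases overlap exons of Tmem259. Grid1, which encodes a delta receptor that binds cerebellin and neurexin at synapses, had 0.932 and 0.881 TPM in N/D/S, against 0.025 and 1.32 in N/D.

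The metabotropic receptor genes were low, with a sum over 7 genes of 27.2 and 6.43 TPM in N/D/S, against 1.69 and 20.1 in N/D. The presynaptic receptor genes of groups II and III were highest in N/D/S replicate 1 or N/D replicate 2. Grm4, which encodes a receptor that inhibits release at striatal output onto the globus pallidus, had 13.6 TPM in N/D/S replicate 1 but 0 as its listed value in N/D/S replicate 2, with 0.471 and 1.5 TPM in N/D. Its log2 fold change of 0.99 (standard error 1.42) rested on a single library and was −0.94 without N/D/S replicate 1, against 0.61 without N/D replicate 1. Grm2 had 7.74 and 1.22 TPM in N/D/S, was listed at 0 in N/D replicate 1 and had 2.73 TPM in N/D replicate 2. Grm8 had 2.67 and 0.271 TPM in N/D/S, but in N/D its value was 3.32 TPM in replicate 2 and 0 as listed in replicate 1. Grm7, a receptor of the presynaptic active zone, had 1.42 TPM in N/D/S replicate 1, was listed at 0 in N/D/S replicate 2 and had 1.21 and 2.13 TPM in N/D. Grm6, the receptor of retinal bipolar cells, was at or below 0.062 TPM everywhere.

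Grm3 and Grm5 differed from these in their order over the libraries. Grm5, which couples to Gq and calcium release, had 0.742 and 2.81 TPM in N/D/S, was listed at 0 in N/D replicate 1 and had 4.98 TPM in N/D replicate 2. Grm3, a receptor of neurons and astrocytes, had 0.909 and 2.12 TPM in N/D/S, against 0.0055 and 5.45 in N/D. In both lines replicate 2 was the higher library for these genes, as it was for Grin1, Grin2b, Grin2d, Grik4 and Cacng7. Grm3, Grm5, Grin1 and Grin2b were highest in N/D replicate 2, and Grin2d, Grik4 and Cacng7 in N/D/S replicate 2. The share of all tested genes with replicate 2 higher in both lines was not computed. Grm3 and Grm5 are also expressed by young astrocytes. The summed level of 8 markers of astrocytes and the oligodendrocyte lineage was also higher in replicate 2 of both lines, and highest in N/D replicate 2. It was 24.8 and 51.5 TPM in N/D/S, against 0.0014 and 151.2 in N/D. Of the 8, 3 and 6 were at 1 TPM or above in N/D/S, and 0 and 8 in N/D. Gfap was listed at 0 in both replicate 1 libraries and Aqp4 in every library but N/D replicate 2. Slc1a2 and Pdgfra were lower in replicate 2 of N/D/S. Slc1a2 had 7.23 and 1.60 TPM in N/D/S, against 0.0014 and 3.67 in N/D. Pdgfra had 0.469 and 0.072 TPM in N/D/S, was listed at 0 in N/D replicate 1 and had 2.83 TPM in N/D replicate 2. The summed level of 4 pluripotency markers was 3.50 and 290.5 TPM in N/D/S, against 0.247 and 184.0 in N/D, most of it Dppa5a except in N/D replicate 1. The libraries were sorted for tdTomato, a gate meant to keep neurons and leave such cells out. The part of these markers' cells in the levels of the members named in this paragraph was not tested. In bulk libraries, a smaller share of cells that express a gene and less RNA of it per cell cannot be told apart.

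**Figure D3:**
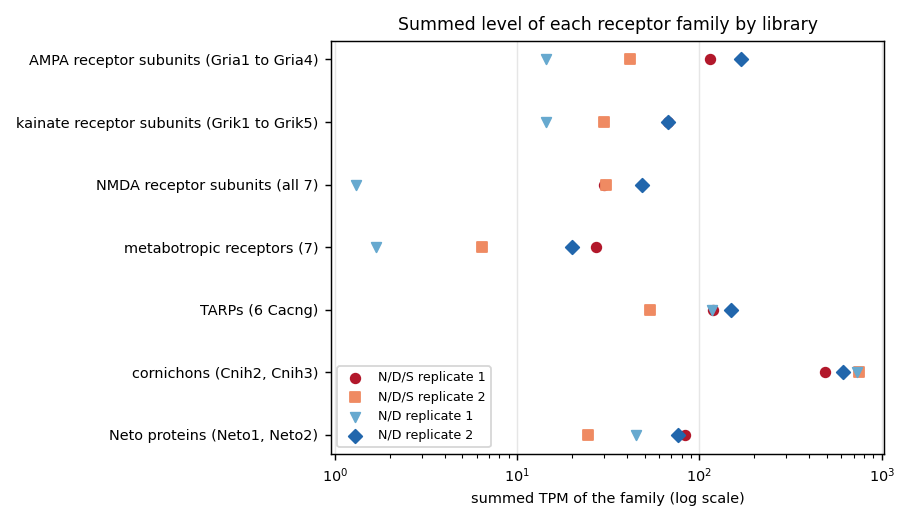
Summed TPM of each receptor family and auxiliary subunit family in each library, on a log scale. For kainate receptors the symbol of N/D/S replicate 1 is hidden behind that of N/D replicate 2, both at about 67 TPM. The ionotropic and metabotropic sums are lowest in N/D replicate 1, from 1.31 TPM for NMDA to 14.4 TPM for AMPA and kainate receptors, whereas the sums of TARPs, cornichons and Neto proteins in that library lie within the range of the N/D/S libraries.

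Summed over each class, the level of the auxiliary subunits was carried by Cnih2, Cacng4 and Neto2. The 24 receptor genes summed to 238.9 and 109.6 TPM in N/D/S, against 31.9 and 306.5 in N/D. The sum in N/D replicate 1 was 10.4% of that in N/D replicate 2. The 10 auxiliary subunit genes summed to 692.6 and 829.6 TPM in N/D/S, against 893.2 and 837.7 in N/D, where replicate 1 was at 106.6% of replicate 2. With Cnih2 taken out of the auxiliary sum, this figure was 70.3%. Counted gene by gene the classes were alike, with 17 of 24 receptor genes (70.8%) and 7 of 10 auxiliary genes (70.0%) under 1 TPM in N/D replicate 1. A difference between the classes was not tested. N/D/S replicate 2 was at 45.9% of N/D/S replicate 1 for the receptor genes and at 38.6% for the auxiliary genes without Cnih2, but at 119.8% for all auxiliary genes and at 102.2% for the NMDA receptor genes.

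The test of N/D/S against N/D across all genes gave no call. With limma and Benjamini-Hochberg adjustment, 0 of 28 members and 0% of the 12975 genes had an adjusted p under 0.05, and the adjusted p was 1 for every tested member. At an unadjusted p under 0.05 there were 0 members and 8 genes, or 0.0617%. The median log2 fold change was 0.17 over the members and 0.26 over all tested genes, with 18 of 28 members (64.3%) and 61.4% of all genes above 0. Without N/D replicate 1, the medians were −0.91 and −0.29, with 5 of 28 members (17.9%) and 29.0% of all genes above 0. Of the 28 members, 18 were under 1 TPM in N/D replicate 1. The members' median also turned with that library kept, to −0.35 without N/D/S replicate 1 and to −0.23 with quantile normalization of all libraries. Without N/D replicate 2, by contrast, Gria4, Grin1 and Grin2b passed the threshold, with log2 fold changes of 4.36, 3.69 and 3.50 and adjusted p-values of 0.0025, 0.012 and 0.018 from limma with Benjamini-Hochberg adjustment. That was 3 of 28 members (10.7%), a smaller share than the 2373 of all tested genes (18.3%) that passed in this fit. The only N/D library left in that fit, assumed to vary like the N/D/S libraries, was the one that lists these 3 genes at or near 0.

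**Figure D4:**
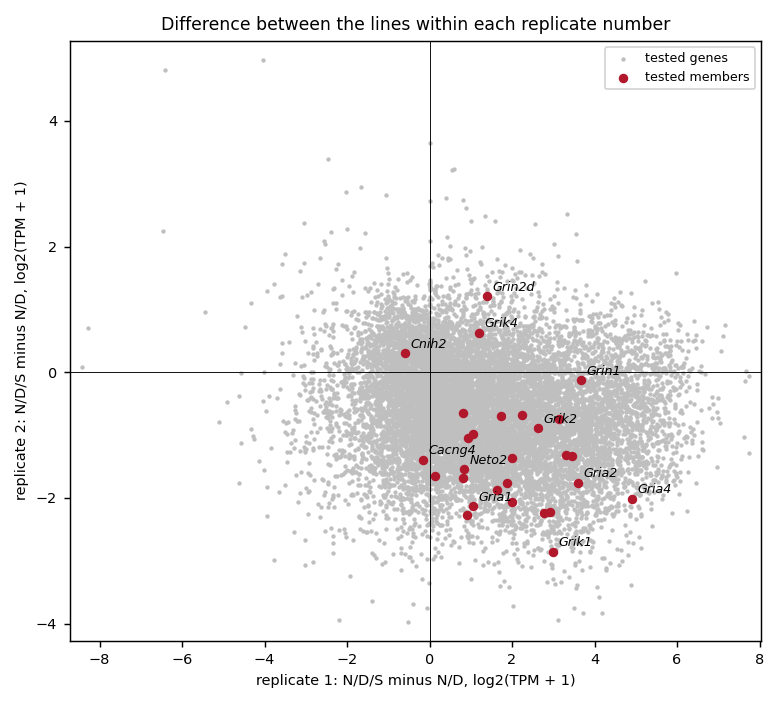
Difference of N/D/S minus N/D in log2(TPM + 1) within replicate 1 (horizontal axis) and within replicate 2 (vertical axis). Grey points are the 12975 tested genes and red points the 28 tested members, of which 24 lie in the lower right quadrant.

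The difference between the lines had opposite signs in the libraries that carry the numbers 1 and 2. The labels do not say that a number marks a shared batch, so this is a description of the libraries. Of the 28 members, 24 (85.7%) were higher in N/D/S in replicate 1 and lower in replicate 2, as were 56.6% of all tested genes. In replicate 1, 20 members were higher in N/D/S by at least 1 log2 unit, against 52.8% of all tested genes, and 0 were lower by as much, against 9.28%. In replicate 2, 18 members were lower in N/D/S by at least 1 log2 unit, against 33.7% of all tested genes, and 1, Grin2d, was higher by as much, against 2.63%. The exceptions to the common pattern were Grik4 and Grin2d, higher in N/D/S in both, Cacng4, lower in both, and Cnih2, lower in replicate 1 and higher in replicate 2. The median difference was 1.81 in replicate 1 and −1.38 in replicate 2 over the members, and 1.14 and −0.62 over all tested genes.

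The members were also set beside all tested genes by library. N/D replicate 2 was the highest library for 17 of the 28 (60.7%), against 25.3% of all tested genes, followed by N/D/S replicate 1 for 8 (28.6%, against 38.7%) and N/D/S replicate 2 for 3 (10.7%, against 14.7%). N/D replicate 1 was the highest library for 0 members, against 21.2% of all tested genes. In N/D replicate 1, 64.3% of the tested members were under 1 TPM, against 42.1% of all tested genes, and in N/D/S replicate 2 39.3%, against 10.7%. Member transcripts were long, with a median of 5002 bases for the longest annotated transcript against 3286 bases for all tested genes. In N/D replicate 1 the share of tested genes under 1 TPM was 34.9% for genes shorter than 2000 bases and 47.6% for those of 6000 bases or more. The 18 members under 1 TPM in that library had a median length of 4755 bases, and the 10 others 5578 bases. In N/D/S replicate 2 the share under 1 TPM was 10.1% for genes shorter than 2000 bases and 18.2% for those of 6000 bases or more, with the lowest share, 7.55%, in the class from 2000 to under 4000 bases. In the other libraries the shorter genes had the higher share, 6.26% against 2.01% in N/D/S replicate 1 and 5.58% against 1.12% in N/D replicate 2. The part of transcript length in the members' levels was not tested.

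A further 31 genes of the same pathway, scaffolds, kinases, other auxiliary subunits and the Gria2 editing enzyme Adarb1, were followed as a list. Of the 29 tested, 0 passed the threshold in either direction and 0 had an unadjusted p under 0.05, with limma and Benjamini-Hochberg adjustment. Their median log2 fold change was 0.23, and −0.40 without N/D replicate 1. In that library 12 of the 29 were under 1 TPM, as were 42.1% of all tested genes. The most abundant was Dlgap4, a postsynaptic scaffold gene, with 269.2 and 192.3 TPM in N/D/S, against 154.5 and 255.7 in N/D. Cnih1, the broadly expressed cornichon, had 98.6 and 73.9 TPM in N/D/S, against 89.7 and 108.9 in N/D, so Cnih2 exceeded its relative several-fold per length in every library. Camk2b, a synaptic kinase gene, had 72.9 and 46.3 TPM in N/D/S, against 73.8 and 81.4 in N/D. Pick1, whose product binds the GluA2 tail, had 61.6 and 36.3 TPM in N/D/S, against 88.6 and 65.0 in N/D. Camk2b and Pick1 were lower in both N/D/S libraries than in both N/D libraries, and Grip2 and Nptx1 were higher, so that 2 of 29 stood on each side, when 8.23% of all tested genes were lower and 8.69% higher.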

How the data were processed

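Poly-A selected RNA of sorted tdTomato+ neurons was sequenced as paired-end reads, and the authors pseudoaligned them to a mouse transcriptome with kallisto 0.44.0 (GRCm38 in the submitters' processing notes). The deposited values are TPM per gene symbol and library. The transcriptome release, how transcripts were combined into genes and the strand setting are not given in the sources used here. Sleuth, named in the study, needs the full kallisto output and was not used here.

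Files were joined on symbol. In each file 26 entries turned into dates were left out. Differences were fitted with limma 3.58.1 in R 4.3.3 on log2(TPM + 1) for genes reaching 1 TPM in 2 or more libraries, 2 libraries against 2, without covariates, with Benjamini-Hochberg adjustment and a threshold of 0.05. The fit was checked on simulated data. Shares of a family's TPM were compared by exact permutation tests. Positions, lengths and overlaps came from GENCODE M21 (GRCm38) and promoters from RefSeq (GRCm38.p6); 23 of 28 promoter windows continued into a GENCODE transcript of the gene. Figures were drawn with matplotlib 3.10.9, and tables and tests outside R used scipy 1.17.1, pandas 2.3.3 and numpy 2.4.6 under Python 3.11.15.

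The members were listed by name and function, but members, lists and tests were all chosen with earlier results of these data known. Named genes are all 34 members, the 4 most abundant genes of the pathway list and any past the threshold, those of that list and of the members whose groups did not overlap, markers, and the genes induced in the lines. The alternatives were pseudocounts of 0.1 and 0.5 TPM, no filter or 1 TPM required of all libraries, scaling by upper quartile, quantiles or median of ratios, replicate number as a block, a variance trend, and each library left out.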

Additional observations from a re-analysis of the deposited data

How the results depend on the processing

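Of 397 alternative values for 34 results, 330 kept their direction and their side of the threshold (counts within 1.5 times and the members' median within 1.45 log2 units), and 61 reversed, 39 of them with a library left out. For all of these the cause was not tested. The members' median log2 fold change was 0.94 with a pseudocount of 0.1 TPM, −0.14 over the 7 members at 1 TPM or above in every library, and −0.91 to 1.43 with a library left out. No member passed the threshold under any alternative that kept all libraries. Genes past the threshold numbered 6 with a variance trend, and 0 to 2373 with a library left out, of which 0 to 3 were members, all without N/D replicate 2, where fewer libraries were fitted.
With a library left out, log2 fold changes ran from −1.43 to 0.34 for Gria1, −1.05 to 2.90 for Gria2, −0.95 to 1.65 for Gria3, −1.45 to 4.36 for Gria4, −2.06 to 2.21 for Grik1, −0.085 to 1.83 for Grik2, −1.65 to 0.77 for Grik3, −0.51 to 1.56 for Grik5, −0.14 to 3.69 for Grin1, −1.39 to 3.50 for Grin2b, −0.59 to 0.66 for Grin3a, −1.40 to 1.28 for Grm3, −0.94 to 2.93 for Grm4, −1.22 to 1.37 for Grm5, −1.0 to 1.11 for Grm8, −1.53 to 0.17 for Cacng2, −1.02 to 1.54 for Cacng3, −1.15 to 1.08 for Cacng5, −0.63 to 2.2 for Cacng8, −0.45 to 0.17 for Cnih2, −0.86 to 1.49 for Cnih3, −1.48 to 1.25 for Neto1 and −1.22 to 0.51 for Neto2. Ranges with an unchanged sign included 0.32 to 1.51 for Grik4, 0.44 to 2.17 for Grin2d and −1.31 to −0.23 for Cacng4. Of the members that reversed, 13 did so without N/D replicate 1. The difference in the Grin2b share ran from −24.6 to 58.5 percentage points and that in the Grik2 share from −0.27 to 17.9.
Quantile normalization left 8 of 28 members above 0 and 20 below, against 18 and 10 without it, with a members' median of −0.23 and −0.05 over all genes. It reversed Gria3 (−0.52), Grik1 (−1.14), Grik4 (−0.20), Grin2b (−0.18), Grin3a (−0.84), Grm4 (−0.16), Grm5 (−0.32), Grm8 (−0.31), Cacng3 (−0.16) and Cnih3 (−0.18). Median-of-ratios scaling gave −0.015 for Grin3a and 0.061 for Grm3, and upper quartile scaling, with a median of 0.14 over all genes, −0.13 and 0.12. A pseudocount of 0.1 TPM gave 0.97 for Grm3, 0.42 for Cacng5 and 0.91 for Neto1, and 0.5 TPM gave 0.15, 0.022 and 0.081.
Libraries with the same number had a correlation of deviations of 0.02. With 2 libraries per line the deviations of replicates 1 and 2 mirror each other, so this is a single value. It cannot show whether the numbers pair the samples. The labels do not say that they do, and the main fit used no pairing. In the fit with a replicate block, 0 genes passed the threshold, 9 had an unadjusted p under 0.05, and no call changed. Depth is unknown, so genes listed at 0 carry no detection limit.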

Other observations

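Exons of other genes overlap several members on the opposite strand beyond those named above. For Grm2, 470 exon bases are shared with Gm28111, for Grm6 599 with Gm12660 and for Grm7 130 with Gm20387. For Grin2b, 143 of 24842 exon bases are shared with Gm14329 and 49 with Gm26653. These partners had no value used here. Tmem259, which overlaps Grin3b, had 7.90 to 23.4 TPM, against at most 0.215 TPM for Grin3b.
The 7 markers of progenitors and dividing cells summed to 493.2 and 692.8 TPM in N/D/S, against 410.9 and 1202 in N/D. Vim was highest in N/D replicate 1, with 150.1 and 78.3 TPM in N/D/S, against 219.2 and 122.9 in N/D. Nes had 30.2 and 4.84 TPM in N/D/S, against 19.2 and 20.8 in N/D. Top2a had 17.3 and 6.2 TPM in N/D/S, against 24.3 and 38.3 in N/D. In N/D replicate 1 Sox2 had 14.5 TPM and Mki67 was listed at 0. Fabp7 had 179.1 and 505.6 TPM in N/D/S, against 133.6 and 906.5 in N/D. Hes5 had 61.8 and 69.2 TPM in N/D/S, was listed at 0 in N/D replicate 1 and had 22.6 TPM in N/D replicate 2. Of 7 markers of mesenchyme, endothelium and blood, 2 and 5 were at 1 TPM or above in N/D/S, and 1 and 5 in N/D. The marker at that level in N/D replicate 1 was Pecam1, which was highest there, at 38.8 TPM. Cdh5, the other endothelial marker, was listed at 0 in that library, as were Col3a1 and Hba-a1.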
